A study of Mus musculus with 6 samples.

Results

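The proteasome genes were taken by name: every row whose symbol starts with Psma, Psmb, Psmc, Psmd, Psme, Psmf or Psmg followed by a digit, which gave 50 of the 23282 rows in each file. They were measured in liver RNA of male C57BL/6N mice that were 8 weeks old when a high-fat diet began and were kept on it for 12 weeks. The vehicle group (3 libraries) received vehicle and the atractylodin group (3 libraries) received atractylodin, a compound of Atractylodes plants, at 10 mg/kg by mouth on 5 days per week for 4 weeks, in both cases after 8 weeks of diet. All 6 libraries came from mice on the high-fat diet, so every difference is between drug and vehicle on that diet. Whether each library is its own animal is not in the labels, and p-values therefore describe only how much these libraries vary, which may be technical.

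The proteasome is the protease of the cytosol and nucleus that degrades proteins tagged with ubiquitin. Its barrel, the core or 20S particle, is built of alpha rings (Psma genes) and beta rings (Psmb genes). The alpha rings gate the entrance and the beta rings hold the active sites. A cap, the 19S particle (Psmc and Psmd genes), binds the tagged protein and removes the ubiquitin. It unfolds the chain with a ring of ATPases, which the Psmc genes encode. Interferon induces a second set of active-site subunits, Psmb8, Psmb9 and Psmb10, which replace Psmb5, Psmb6 and Psmb7 in newly made particles to give the immunoproteasome, together with the activator subunits Psme1 and Psme2. Transcription of the constitutive genes is known to be raised by the factor Nfe2l1 when proteasome activity is short.

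Total counts were 1831461 for vehicle 1, the shallowest library, and 9871762 to 12565393 for the other 5. Proteasome rows took 0.439% to 0.456% of counts in the vehicle libraries and 0.473% to 0.490% in the atractylodin libraries. The hepatocyte gene Alb stood between 47790 and 56100 CPM (counts divided by the TMM-scaled library size) in every library, as the label liver requires. Of the 50 rows, 48 passed the filter on low counts. The 2 that did not were Psma8, a testis form of an alpha subunit, with 2 to 17 counts per library, and Psmb11, the beta subunit of the thymus, with 0 to 3 counts. The row Psmc3ip matches the name rule but encodes a recombination protein and not a subunit, and Psme2b is an intronless copy of Psme2. All 50 symbols matched 1 gene of GENCODE M21 on GRCm38, and 10 of those genes share bases with a same-strand neighbour and 19 with an antisense one.

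With atractylodin the immunoproteasome subunit Psmb9 fell, while 6 constitutive subunits rose by 26.4% to 42.3%: the alpha subunit Psma7, the beta subunits Psmb4 and Psmb5, the cap ATPase Psmc6 and the lid subunits Psmd11 and Psmd12. The other 41 tested rows did not pass an adjusted p of 0.05 (edgeR quasi-likelihood test, Benjamini-Hochberg adjustment over 12505 rows). Over all tested rows 3.92% passed as higher and 3.33% as lower, against 6 and 1 of the 48 proteasome rows. The share of all rows at an unadjusted p under 0.05 was not counted, so counts at that threshold have no background beside them. Without vehicle 1 the passing members were Psmc6, Psmd11 and Psmb9 alone (2 higher, 1 lower), and without vehicle 3 they were Psmb4, Psmc6, Psmd11 and Psmb9 (3 higher, 1 lower). Scaling by total counts alone gave 3 members higher (Psmb4, Psmc6 and Psmd11) and 2 lower (Psmb8 and Psmb9), where over all rows it turned 490 higher and 416 lower calls into 312 and 707. With no filter on low counts 9 members passed as higher, Psma5, Psmc3 and Psmd6 in addition, and with thinning to the shallowest depth there were 4 (Psma7, Psmb4, Psmc6 and Psmd11).

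**Figure D1:**
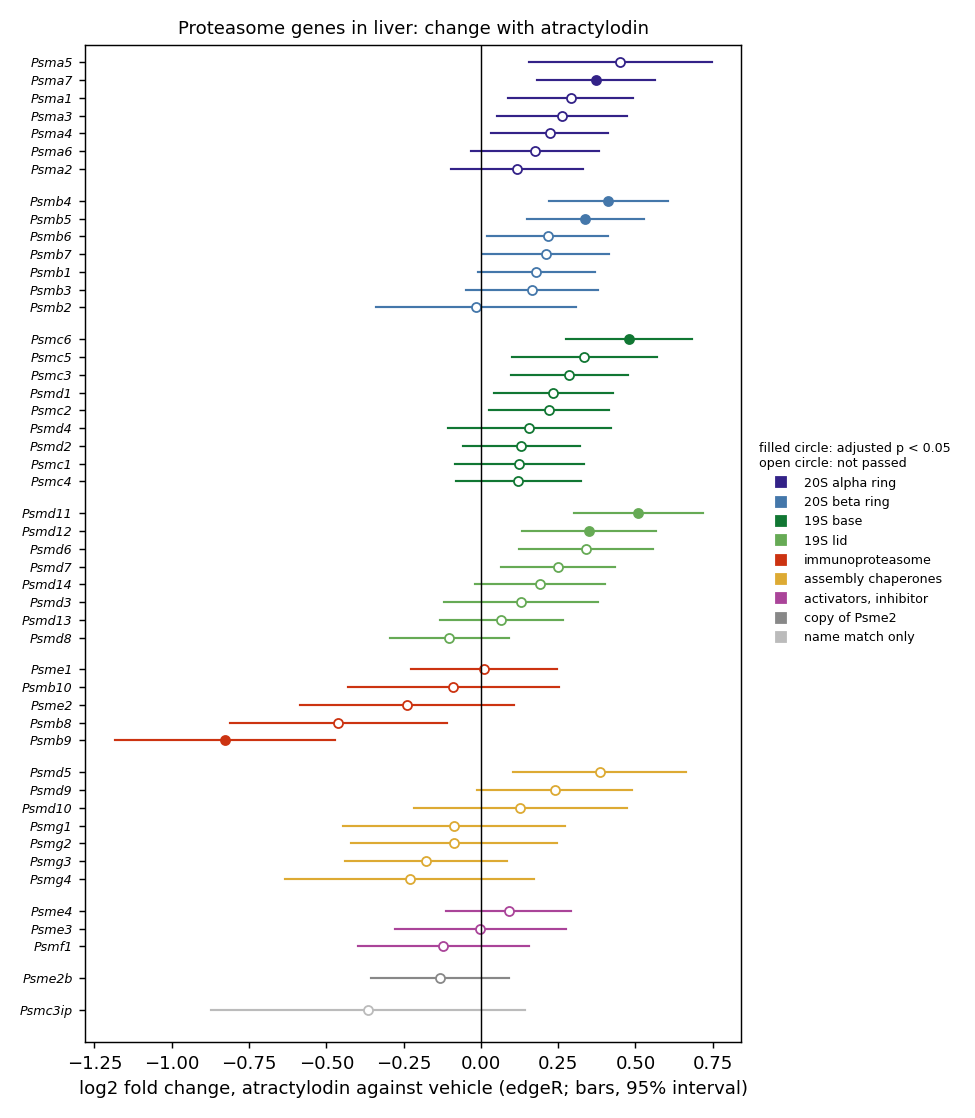
Log2 fold change of each of the 48 tested proteasome rows, atractylodin against vehicle (edgeR, 3 libraries per group), grouped by role, with bars for the 95% interval and filled circles for an adjusted p under 0.05. Of the 31 constitutive core and cap genes 29 lie to the right of 0, and 4 of the 5 immunoproteasome genes lie to the left.

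The sequences shown are from the starts of 5 of these genes. Of the 6 subunits that rose, Psmb5, Psmc6 and Psmd12 were chosen because they hold the letters of the antioxidant response element. Psma7, Psmb4 and Psmd11 also rose, have no such match and are not shown. Psmb9 and Psmb8 are the 2 catalytic immunosubunits with the lowest estimates. RefSeq start windows (GRCm38.p6, 250 bases before to 50 after each annotated start) were matched by symbol for 42 of the 50 members. In capitals is a match to the antioxidant response element TGACNNNGC (either strand), the motif that Nfe2l1 and Nfe2l2 are known to bind, in Psmb5, Psmc6 and Psmd12, with transcribed bases left out. For Psmb9 and Psmb8, whose windows lie inside an annotated transcript, 30 bases are given, with a CCAAT box and a gamma-activated site (TTCNNNGAA) in capitals.
Psmb5, chr14:54618023-54618245, minus strand: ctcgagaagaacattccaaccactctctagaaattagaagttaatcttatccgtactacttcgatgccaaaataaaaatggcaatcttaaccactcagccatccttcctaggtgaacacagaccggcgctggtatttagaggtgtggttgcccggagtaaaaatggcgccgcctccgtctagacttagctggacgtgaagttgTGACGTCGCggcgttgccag
Psmc6, chr14:45329574-45329787, plus strand: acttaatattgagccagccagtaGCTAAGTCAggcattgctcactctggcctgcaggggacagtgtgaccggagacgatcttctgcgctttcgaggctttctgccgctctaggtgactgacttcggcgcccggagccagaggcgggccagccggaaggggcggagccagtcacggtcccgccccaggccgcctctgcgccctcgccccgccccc
Psmd12, chr11:107479278-107479483, plus strand: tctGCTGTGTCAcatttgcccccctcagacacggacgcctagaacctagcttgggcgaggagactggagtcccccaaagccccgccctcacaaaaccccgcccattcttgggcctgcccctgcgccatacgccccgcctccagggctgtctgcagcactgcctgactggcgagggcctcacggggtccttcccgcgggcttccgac
Psmb9, chr17:34187322-34187351, minus strand: cgcgcagccgctgATTGGaaagccgagccc
Psmb8, chr17:34198087-34198116, plus strand: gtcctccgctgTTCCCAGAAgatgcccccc

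The antioxidant response element letters were found in 6 of the 42 matched members (14.3%), against 12.4% of all 32851 windows. They were in 3 of the 6 subunits that rose (Psmb5, Psmc6 and Psmd12) and in Psmb6, Psmd9 and Psme4. Of the 6 leave-one-out fits, Psmb5 passed in 1, Psmd12 in 0 and Psmc6 in 6. The interferon-stimulated response element (GAAA, any 2 bases, GAAA) was in 5 members (Psmb3, Psmd4, Psmd9, Psmg4 and, of the immunoproteasome genes, Psme1) and in 3.44% of windows. The gamma-activated site was in 3 members (Psmb8, Psmd2 and Psmg1) and 8.30% of windows, and CCAAT was in 15 members, among them Psmb9, and 37.4% of windows. The palindrome of nuclear respiratory factor 1 (GCGCA, any base, GCGC), a factor unrelated to Nfe2l1, was in 7 members and 4.60% of windows, and in none of the 6 that rose. Both strands were searched. Each match is a match of letters in this window and was not tested as a binding site.

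Among the core genes, 3 of 14 passed as higher and none as lower, also at an unadjusted p under 0.05, and 9 had an unadjusted p under 0.05 as higher. The median log2 fold change of the 14 was 0.22, that of all tested rows was -0.001, and 13 of the 14 estimates were above 0 where 49.8% of all rows were. In 10 of the 14 genes every atractylodin library lay above every vehicle library, which held for 13.5% of all rows. Scaling by total counts alone lowered the median to 0.14 and left 13 of 14 estimates above 0. DESeq2 and limma-voom each passed 3 core genes as higher and 0 as lower. Without vehicle 1 none of the 14 passed in edgeR, with 8 higher and 0 lower at an unadjusted p under 0.05 and a median of 0.24, and under total counts alone 1 passed.

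In the alpha ring, Psma7 (chromosome 2, 180036374 to 180042433) stood at 263.8, 279.2 and 269.7 CPM in the vehicle libraries and at 365.3, 360.9 and 326.8 CPM in the atractylodin libraries. The groups did not overlap, and the gain was 29.4% (log2 fold change 0.37 ± 0.09 SE, edgeR adjusted p = 0.0164). The loss of the call came with leaving out vehicle 1 (adjusted p = 0.0799) or vehicle 3 (adjusted p = 0.0805), and with total counts alone (adjusted p = 0.0698). The other 6 tested alpha genes, Psma1 to Psma6, had log2 estimates from 0.12 (Psma2) to 0.45 (Psma5) and did not pass. Psma5 went from 34.7 ± 3.93 to 46.9 ± 8.26 CPM (SD, n = 3, edgeR adjusted p = 0.0595), the highest estimate of the ring. Psma8 was under 1.4 CPM in every library.

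In the beta ring, Psmb4, a structural subunit (chromosome 3, 94884093 to 94886961), was at 226.6, 231.8 and 246.3 CPM with vehicle and at 332.0, 318.2 and 289.2 CPM with atractylodin. All 3 atractylodin libraries were above all vehicle libraries, a gain of 33.1% (log2 0.41 ± 0.09 SE, edgeR adjusted p = 0.00936) whose call was lost without vehicle 1 (adjusted p = 0.0584). Psmb5, which carries the chymotrypsin-like site (chromosome 14, 54614119 to 54618022), was at 110.9, 108.4 and 112.5 CPM with vehicle and at 132.9, 141.5 and 145.0 CPM with atractylodin, again without overlap. Its log2 fold change was 0.34 ± 0.09 SE (edgeR adjusted p = 0.0275), and the call went in 5 of the 6 leave-one-out fits, all but the one without atractylodin 1, with adjusted p up to 0.0954, under total counts alone (adjusted p = 0.0958) and with thinning to the depth of vehicle 1 (adjusted p = 0.0754).

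The other active-site subunits had estimates in the same direction that did not pass. Psmb6, with the caspase-like site, was at 120.6, 106.0 and 123.1 CPM with vehicle and at 134.6, 135.6 and 135.0 CPM with atractylodin (log2 0.22, 95% interval 0.02 to 0.41, edgeR adjusted p = 0.181). Psmb7, with the trypsin-like site, was at 105.5, 107.1 and 112.2 CPM and at 111.8, 129.7 and 134.8 CPM, with 1 atractylodin library inside the vehicle range (log2 0.21, 95% interval 0.01 to 0.41, adjusted p = 0.218). The structural subunits Psmb1 and Psmb3 had estimates of 0.18 and 0.17 without overlap between groups, and Psmb2 had an estimate of -0.02 with a 95% interval of -0.34 to 0.31.

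The cap genes gave values close to those of the core. Of the 17 genes 3 passed as higher and none as lower, where 3.92% and 3.33% of all tested rows did. At an unadjusted p under 0.05 there were 9 as higher and 0 as lower, and the median log2 fold change was 0.22. Estimates were above 0 in 16 of 17, where 49.8% of all rows were. In 12 the atractylodin libraries all lay above the vehicle libraries, which held for 13.5% of all rows. DESeq2 and limma-voom each passed 2 as higher and 0 as lower, as did edgeR without vehicle 1, and total counts alone lowered the median to 0.14 with 15 estimates above 0.

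In the base, which holds the ATPase ring and the subunits that first hold the ubiquitin chain, Psmc6 had the largest change. This ATPase gene (chromosome 14, 45329788 to 45349705) was at 63.5, 66.5 and 69.9 CPM with vehicle and at 89.4, 92.7 and 98.0 CPM with atractylodin. The groups were apart by more than the range of either, and the gain was 39.3% (log2 0.48 ± 0.10 SE, edgeR adjusted p = 0.00509). The call held in all 6 leave-one-out fits and in all 8 other planned settings. The ATPase genes Psmc5, Psmc3 and Psmc2 had estimates of 0.34, 0.29 and 0.22 without overlap between groups (edgeR adjusted p = 0.0795, 0.0618 and 0.166). Psmc1 and Psmc4 were at 0.12 each. Of the large scaffold subunits, Psmd1, the base gene with the smallest p among those not ATPases, was at 0.23 (adjusted p = 0.142) and Psmd2 at 0.13, and the ubiquitin receptor Psmd4 was at 0.16 with overlapping groups.

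In the lid, Psmd11, a scaffold subunit that joins the lid to the core (chromosome 11, 80428615 to 80473248), was at 113.0, 124.7 and 143.9 CPM with vehicle and at 187.0, 185.9 and 174.6 CPM with atractylodin. Every atractylodin library was above every vehicle library, and its gain of 42.3% was the largest among the proteasome rows (log2 0.51 ± 0.10 SE, edgeR adjusted p = 0.00391). The call held in all 6 leave-one-out fits and in all 8 other planned settings. Psmd12, another lid scaffold (chromosome 11, 107479484 to 107504362), was at 67.3, 58.3 and 69.0 CPM with vehicle and at 79.9, 86.3 and 80.8 CPM with atractylodin. Its groups did not overlap, but the adjusted p of 0.0450 (edgeR, log2 0.35 ± 0.10 SE) did not hold in any of the 6 leave-one-out fits or in 5 of 8 other settings, among them DESeq2 (adjusted p = 0.0924) and the replicate block (adjusted p = 0.0722).

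The remaining lid genes did not pass. Psmd6 and Psmd7 had estimates of 0.34 and 0.25 without overlap (edgeR adjusted p = 0.0534 and 0.101), and Psmd14, the enzyme that cuts ubiquitin chains off the substrate, was at 0.19 without overlap. Psmd3 and Psmd13 were at 0.13 and 0.07 with overlapping groups. Psmd8, with the highest mean count of the lid, was at 204.6, 220.7 and 204.0 CPM with vehicle and at 210.5, 183.3 and 193.2 CPM with atractylodin, the single cap gene with a negative estimate (log2 -0.10, 95% interval -0.29 to 0.09).

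**Figure D2:**
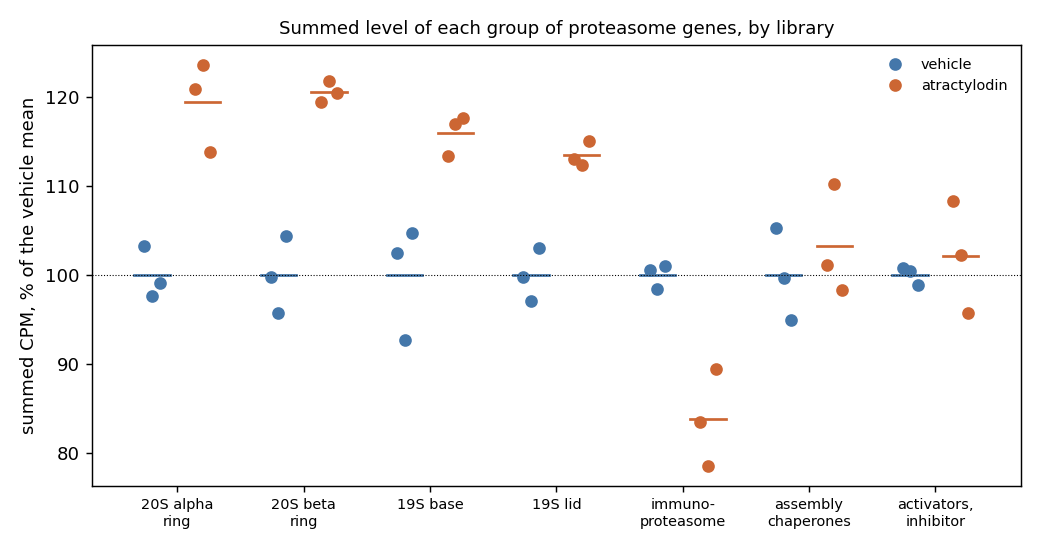
Summed CPM of each group of proteasome genes in each library, as a percentage of the vehicle mean, with points for libraries and lines for means of 3; the vertical axis does not start at 0. The atractylodin libraries lie above the vehicle libraries in both rings, the base and the lid. They lie below them for the immunoproteasome genes, without Psme2b, and overlap them for the chaperones and for the activators and inhibitor.

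Summed over the group, the 14 core genes came to 1727 ± 49.8 CPM with vehicle and 2073 ± 48.9 CPM with atractylodin (SD, n = 3), and the 17 cap genes to 2059 ± 97.9 and 2365 ± 34.5 CPM. The 5 immunoproteasome genes came to 148 ± 2.13 and 124 ± 8.10 CPM, without the row of Psme2b (means of 69.3 and 62.75 CPM). Means went from 24.9 to 14.4 CPM for Psmb9 and from 29.15 to 21.2 CPM for Psmb8. They went from 23.4 to 20.1 CPM for Psme2, from 22.4 to 20.35 CPM for Psmb10 and from 48.4 to 48.2 CPM for Psme1. Each sum was taken over 3' end counts, which are not divided by transcript length, and is given as a description with no test. The core sum was 1.2 times and the immunoproteasome sum 0.838 times the vehicle mean, on opposite sides of the vehicle range.

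Of the 5 immunoproteasome genes, 1 fell and 4 did not pass. Psmb9, whose protein replaces Psmb6 and is known to lower caspase-like cutting (chromosome 17, 34181987 to 34187764), was at 21.5, 27.7 and 25.5 CPM with vehicle and at 11.4, 16.4 and 15.4 CPM with atractylodin. These rest on 40, 323 and 316 counts against 114, 157 and 184. The groups did not overlap, and the level was 1.77-fold lower with atractylodin (log2 fold change -0.83 ± 0.17 SE, edgeR adjusted p = 0.00564). The call held in all 6 leave-one-out fits, with adjusted p up to 0.0369, and in 7 of 8 other planned settings. It was lost when all libraries were thinned to the depth of vehicle 1 (log2 -0.53, adjusted p = 0.213).

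Psmb8, whose protein replaces Psmb5 (chromosome 17, 34197721 to 34201454), was at 28.0, 31.3 and 28.1 CPM with vehicle and at 21.4, 16.0 and 26.3 CPM with atractylodin. All atractylodin libraries were below all vehicle libraries, as in 12.6% of all tested rows, but the change did not pass (log2 -0.46 ± 0.17 SE, 95% interval -0.81 to -0.11, edgeR adjusted p = 0.110). It passed without atractylodin 3 (adjusted p = 0.0310) and under total counts alone (adjusted p = 0.0493). Psmb10, whose protein replaces Psmb7 (chromosome 8, 105935735 to 105938444), was at 25.8, 20.9 and 20.4 CPM and at 19.1, 18.0 and 24.0 CPM. Its groups overlapped, with a log2 estimate of -0.09 and a 95% interval of -0.43 to 0.25.

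Psme1 and Psme2 form the PA28 ring, which opens the barrel without the need for ubiquitin. Psme1 (chromosome 14, 55578123 to 55581529) was at 52.2, 45.2 and 47.9 CPM with vehicle and at 50.5, 49.3 and 44.9 CPM with atractylodin, an estimate of 0.01 with a 95% interval of -0.23 to 0.25 and a sign that turned under several settings. Psme2 (chromosome 14, 55587441 to 55591113) was at 21.5, 20.8 and 28.0 CPM and at 21.3, 16.9 and 22.1 CPM (log2 -0.24, 95% interval -0.58 to 0.11, edgeR adjusted p = 0.438). The row of its copy Psme2b (chromosome 11, 48945354 to 48946190) was at 73.7, 67.1 and 67.2 CPM and at 56.4, 68.7 and 63.1 CPM. The last 300 bases of the longest coding Psme2 transcript are 99.0% identical to Psme2b, so the reads of the pair cannot be assigned with certainty. With both rows summed the log2 fold change was -0.16 (edgeR adjusted p = 0.364), a setting chosen after seeing the data.

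**Figure D3:**
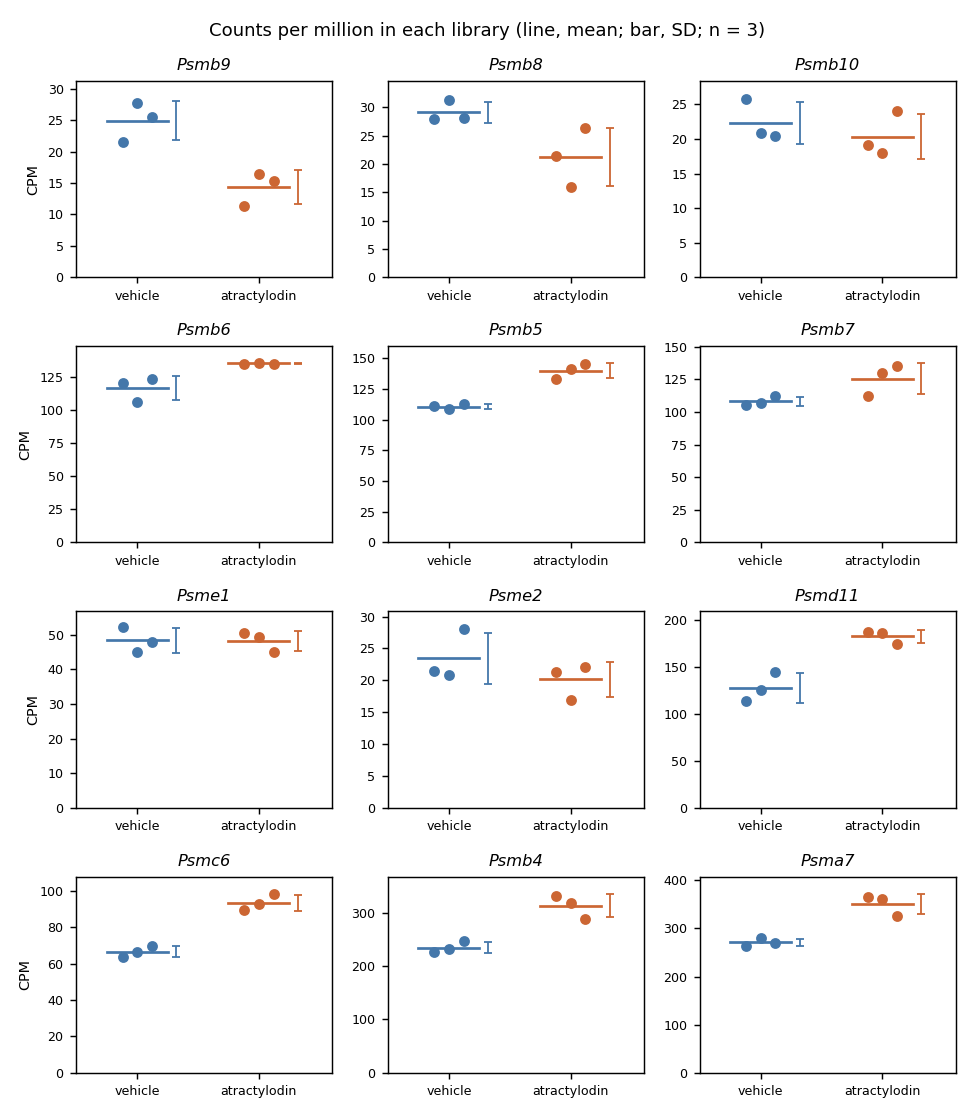
CPM of the 5 immunoproteasome genes, the 3 constitutive active-site subunits and 4 of the subunits that rose, with points for libraries, lines for means and bars for the SD of 3; every axis starts at 0. Psmb9 and Psmb8 are lower and Psmd11, Psmc6, Psmb4, Psma7, Psmb5 and Psmb6 are higher in all 3 atractylodin libraries, while Psmb7, Psmb10, Psme1 and Psme2 overlap.

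Counts of each catalytic immunosubunit were set against those of the constitutive subunit it replaces, within each library, so that the scaling of libraries drops out. The percentage compares libraries and is not the share of particles, since 3' end counts of different genes need not be captured alike. Psmb9 came to 17.9%, 26.2% and 20.8% of Psmb6 in the vehicle libraries and to 8.44%, 12.1% and 11.4% in the atractylodin libraries. Psmb8 came to 25.2%, 28.9% and 25.02% of Psmb5 with vehicle and to 16.1%, 11.3% and 18.2% with atractylodin. Psmb10 came to 24.5%, 19.5% and 18.2% of Psmb7 with vehicle and to 17.1%, 13.9% and 17.8% with atractylodin. In each of the 3 pairs every atractylodin library was below every vehicle library, by the narrowest margin for Psmb10 (17.8% against 18.2%). The share of other gene pairs that part in this way was not counted. Single rows parted as lower in 12.6% of all tested rows. Part of each difference lies in the constitutive subunit, whose estimate was above 0 in all 3 pairs. Psmb10 alone had a log2 estimate of -0.09 with overlapping groups, against 0.21 for Psmb7. For Psmb8 and Psmb5 the log2 estimates were -0.46 and 0.34, and for Psmb9 and Psmb6 -0.83 and 0.22. These percentages are a description of the members and were given no test.

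**Figure D4:**
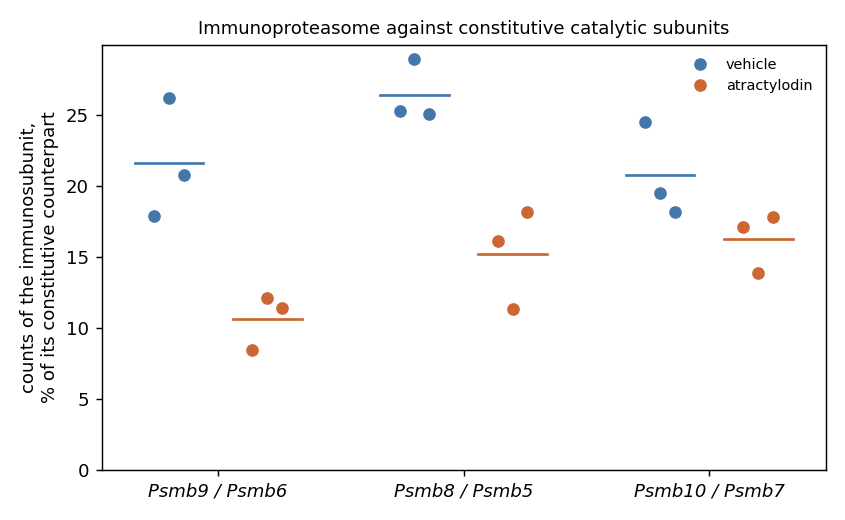
Counts of Psmb9, Psmb8 and Psmb10 as a percentage of those of Psmb6, Psmb5 and Psmb7 in the same library, with points for libraries and lines for means of 3. The means go from 21.6% to 10.6%, from 26.4% to 15.2% and from 20.7% to 16.2%.

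None of the 7 genes for assembly chaperones passed in edgeR, DESeq2 or limma-voom, and at an unadjusted p under 0.05 there were 1, 1 and 2 of them. The 4 that build the core, Psmg1 to Psmg4, had estimates from -0.23 to -0.09 with overlapping groups. The 3 that build the base of the cap had estimates above 0: Psmd5 at 0.38 (29.9 ± 1.23 to 38.8 ± 5.38 CPM, SD, n = 3, edgeR adjusted p = 0.0921), Psmd9, with the highest mean of the group, at 0.24 (adjusted p = 0.259), and Psmd10 at 0.13. Psmd5 and Psmd9 did not overlap between groups. Psmd9 overlaps Hpd, an abundant liver gene, on the opposite strand, and whether counting used strand is not given.

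The alternative activators and the inhibitor did not pass either, with 0 of 3 at an unadjusted p under 0.05 and 0 passing in DESeq2 and limma-voom. Psme4, which encodes the activator PA200, was at 104 ± 1.78 and 110.5 ± 9.95 CPM, Psme3, the nuclear PA28 subunit, at 32.03 ± 3.01 and 32.5 ± 3.35 CPM, and Psmf1, the inhibitor PI31, at 36.0 ± 3.20 and 32.6 ± 3.67 CPM (SD, n = 3). Psmc3ip, which is no subunit, had the lowest level of the tested proteasome rows, 8.83 ± 0.872 and 6.87 ± 1.66 CPM (edgeR adjusted p = 0.415).

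Proteins that work with the proteasome but are not named Psm were read from a list of 10, of which 9 were in the files. Of these 9 genes 3 rose and none fell, where 3.92% of all tested rows passed as higher and 3.33% as lower. At an unadjusted p under 0.05 there were 5 higher and 0 lower. DESeq2 and limma-voom each passed 3 as higher and 0 as lower, and the median log2 fold change was 0.32. Adrm1, the ubiquitin receptor at the tip of the cap (chromosome 2, 180171485 to 180176286), was at 50.6, 48.3 and 53.8 CPM with vehicle and at 62.4, 72.8 and 77.3 CPM with atractylodin, with no overlap (log2 0.48 ± 0.11 SE, edgeR adjusted p = 0.0132). Txnl1, a thioredoxin-like protein bound to the cap, rose from 84.7 ± 2.34 to 111.5 ± 0.876 CPM (SD, n = 3, edgeR adjusted p = 0.0102). Pomp, the chaperone that matures the barrel, rose from 412 ± 11.7 to 515 ± 17.8 CPM (edgeR adjusted p = 0.0342). The call of Adrm1 went without vehicle 2 and without atractylodin 3, and that of Txnl1 without vehicle 3 and with thinning. That of Pomp held in 1 of the 6 leave-one-out fits, the one without atractylodin 1, and went under total counts alone (adjusted p = 0.118) and the replicate block (adjusted p = 0.0595). Usp14, a deubiquitinase of the cap, and AI314180, which encodes the adaptor Ecm29, had estimates of 0.34 and 0.35 without overlap between groups and did not pass, and Shfm1 and Uchl5 were near 0.

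Of 14 tested ubiquitin genes and shuttling factors 1 rose and 13 did not pass, where 3.92% of all tested rows passed as higher. The 1 that rose was Zfand5, whose protein is known to stimulate the proteasome. Zfand5 was at 56.5, 59.4 and 60.3 CPM with vehicle and at 75.0, 80.7 and 74.3 CPM with atractylodin (log2 0.38 ± 0.10 SE, edgeR adjusted p = 0.0264). Its call went without each vehicle library and without atractylodin 2 (adjusted p up to 0.0865), under DESeq2 (adjusted p = 0.0527), total counts alone and thinning. Without vehicle 1 and under DESeq2 no gene of the list passed, with 4 higher and 0 lower at an unadjusted p under 0.05 in each.

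Of the transcription factors that control these genes, Nfe2l1 was at 67.6 ± 10.8 and 77.2 ± 6.38 CPM and Nfe2l2 at 98.7 ± 18.0 and 76.7 ± 4.16 CPM (SD, n = 3, edgeR adjusted p = 0.447 and 0.0535), with estimates of opposite sign that did not pass. The groups of Nfe2l2 did not overlap, and it passed as lower under total counts alone (edgeR adjusted p = 0.0256), with no filter (0.0125) and without vehicle 1 (0.0450), while its log2 estimate went from -0.38 to -0.21 without vehicle 2. The interferon regulatory factors Irf1 and Irf8 had estimates of -0.37 and 0.32, Nlrc5, an activator of MHC class I genes, was at -0.32, Stat3 at 0.30 and Ngly1, which processes the Nfe2l1 protein, at 0.35, all with overlapping groups.

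Genes for loading the resulting peptides onto MHC class I had 10 of 11 estimates below 0 and a median log2 fold change of -0.17. Of all tested rows 49.8% had an estimate above 0. Of the 11, 2 fell and 9 did not pass, where 3.33% of all tested rows passed as lower. At an unadjusted p under 0.05 there were 3 lower (Tap1, Calr and Pdia3) and 0 higher. DESeq2 passed 3 as lower and limma-voom 2. In edgeR 1 passed without vehicle 1, 1 without vehicle 3 and 0 without atractylodin 1, with 3 lower at an unadjusted p under 0.05 in each. Tap1, which pumps peptides into the endoplasmic reticulum, lies head to head with Psmb9 (chromosome 17, 34187553 to 34197225, plus strand), so that their annotated starts overlap by 212 bases. It was at 25.8, 21.2 and 16.4 CPM with vehicle and at 12.3, 14.3 and 12.0 CPM with atractylodin, without overlap between groups (log2 -0.66 ± 0.18 SE, edgeR adjusted p = 0.0349). Its call went without vehicle 1, vehicle 2, atractylodin 1 or atractylodin 3, under limma-voom (adjusted p = 0.0653) and with thinning (adjusted p = 0.0542). The chaperone gene Calr fell from 582 ± 116 to 335 ± 52.0 CPM (SD, n = 3, edgeR adjusted p = 0.0162), a call lost without vehicle 3 and without atractylodin 1. Pdia3 was at -0.81 without overlap between groups and did not pass (edgeR adjusted p = 0.0638). B2m, the light chain of MHC class I, was at 2747 ± 122 and 2411 ± 418 CPM and did not pass. The MHC class I genes H2-K1 and H2-D1 had log2 estimates of -0.15 and -0.06 with overlapping groups. Tap2, Tapbp, Canx, Erap1 and Tapbpl were at -0.62, -0.17, -0.16, -0.10 and 0.02, also with overlapping groups.

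**Figure D5:**
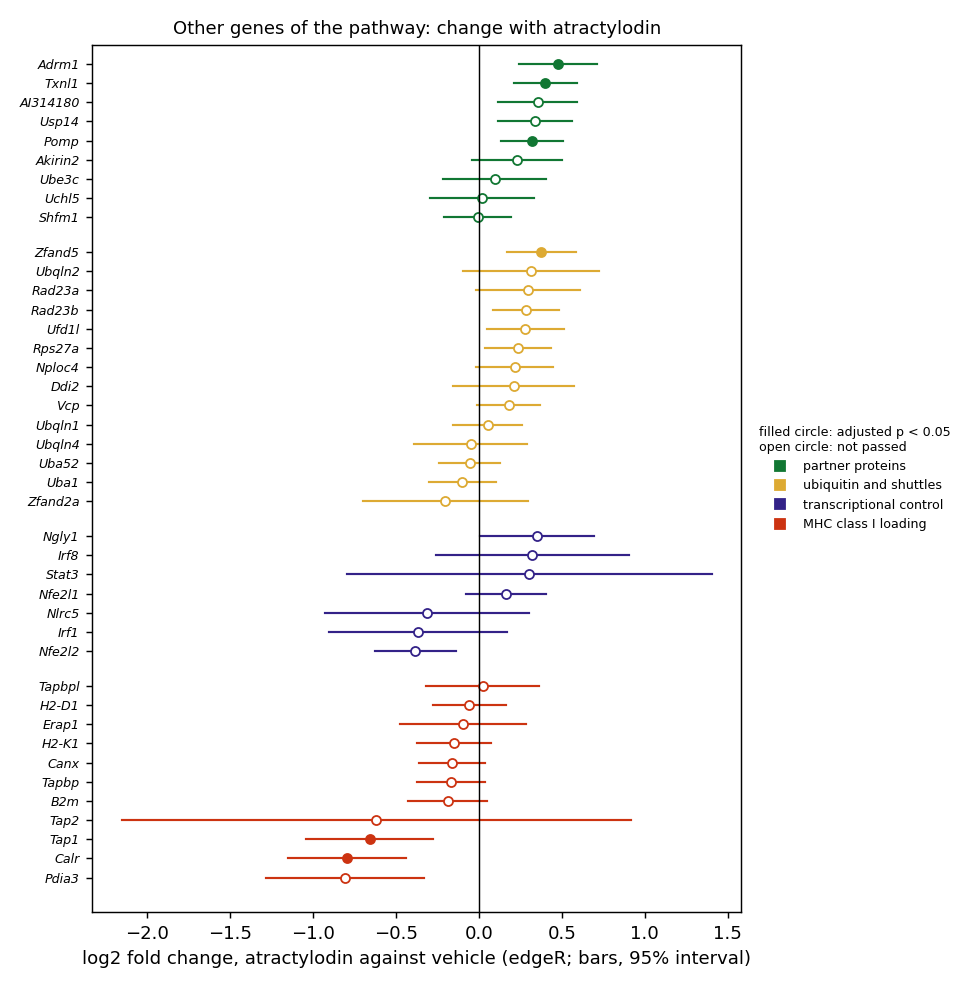
Log2 fold change of other tested genes of the pathway, atractylodin against vehicle (edgeR, 3 libraries per group), by list, with bars for the 95% interval and filled circles for an adjusted p under 0.05. Adrm1, Txnl1, Pomp and Zfand5 rose, and Tap1 and Calr fell.

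Immune cells express the immunosubunits at high levels, and in whole liver fewer immune cells and less RNA per cell cannot be told apart. Over all tested rows 49.8% had an estimate above 0, 3.92% passed as higher and 3.33% as lower. Of 10 macrophage markers 9 had estimates below 0 and none passed in edgeR, DESeq2 or limma-voom. At an unadjusted p under 0.05 there were 3, 2 and 4 lower. Their summed level was 364 to 517 CPM in the vehicle libraries and 299 to 446 CPM in the atractylodin libraries. Of 8 leukocyte markers 5 had estimates below 0, with a median of -0.14 and 1 lower (Cd52, log2 -0.54) and 1 higher at an unadjusted p under 0.05. Their summed level was 54.4 to 79.7 CPM with vehicle and 49.8 to 72.3 CPM with atractylodin. The 1 that passed was Cytip, which was higher with atractylodin in edgeR (adjusted p = 0.0443) but passed in neither DESeq2 nor limma-voom, and Ptprc, the gene of the pan-leukocyte protein CD45, was at 9.50 ± 3.10 and 10.33 ± 1.93 CPM (SD, n = 3). T-cell markers summed to 2.69 to 3.64 CPM with vehicle and 0.996 to 3.93 CPM with atractylodin over 7 rows. Only 1 of these had enough counts to be tested, Cd3g (log2 0.33, 95% interval -1.29 to 1.94). B-cell markers summed to 18.5 to 27.7 CPM with vehicle and 13.6 to 17.8 CPM with atractylodin, nearly all of it from Cd74, which other cells also express. Bile duct markers summed to 41.5 to 51.7 CPM with vehicle and 21.7 to 27.1 CPM with atractylodin, most of it from Sox9 and Spp1. Of the 3 tested, these 2 fell, and Epcam had a log2 estimate of 0.05 with overlapping groups. Krt19 and Krt7 were not tested. Dendritic-cell markers summed to 5.50 to 10.99 and 7.52 to 9.94 CPM, and of the 5 tested none passed in edgeR, DESeq2 or limma-voom, with 1 higher at an unadjusted p under 0.05 in each. Of 6 endothelial markers 5 had estimates below 0, Stab2 fell (edgeR adjusted p = 0.0283) and Lyve1 rose (adjusted p = 0.0414), and the summed level was 253.5 to 266.0 CPM with vehicle and 239 to 267 CPM with atractylodin. Without vehicle 1, vehicle 2, vehicle 3 or atractylodin 3 neither passed. All 5 stellate-cell markers had estimates below 0, with none passing and 0 at an unadjusted p under 0.05 in edgeR, DESeq2 and limma-voom (1 passed as lower in edgeR without atractylodin 1), and summed levels of 359 to 449 and 298 to 421 CPM. The part of these cells in the change of Psmb9 was not tested.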

How the data were processed

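Liver RNA of 6 samples went into Lexogen QuantSeq 3' libraries, per the labels' protocols. The authors deposited raw counts per gene symbol. Bowtie2, bedtools and mm10 are named in the submitters' processing notes, without roles. The annotation, strand setting and treatment of reads matching several genes are not given in the sources used here. Sample titles gave the groups and replicate numbers. No pair of libraries agreed within sampling noise (chi-square per degree of freedom at least 2.75).

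Rows were filtered with filterByExpr, scaled by TMM and tested in edgeR 4.0.16 (R 4.3.3) by the robust quasi-likelihood test on all 6 libraries without covariates, with Benjamini-Hochberg adjustment over 12505 rows at 0.05. The SE is the size of the log2 fold change over the root of F, and intervals are 95%. CPM used TMM-scaled sizes. The floor of 3 counts was 0.239 to 1.64 CPM per library and covers counting error only. The biological coefficient of variation was 15.0%.

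The members and lists were chosen with earlier results of these data known. Named were the immunoproteasome genes and the active-site subunits they replace, passing members, in each group the smallest p and the highest mean, the largest rise and fall, members that failed the filter, and in each pathway list the passing genes; any other gene was picked with its values in view. Paaf1 was not analysed here. Some genes of the pathway lists are not reported here, and for the transcription factors no count over the list is given. GENCODE M21 (GRCm38, or mm10) gave positions, and start windows from RefSeq on GRCm38.p6. Transcripts were aligned with Biopython 1.88. Alternatives were DESeq2 1.42.0, limma-voom (limma 3.58.1), RLE scaling, total counts alone, no filter, a filter at a mean CPM of 5, a replicate block, thinning to the shallowest library, leaving out each library and, added after seeing the data, summing Psme2 and Psme2b. The labels give no batch or date.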

Additional observations from a re-analysis of the deposited data

How the results depend on the processing

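The number of proteasome rows passing as higher was 6, and it was 3 under total counts alone, 9 with no filter on low counts, 4 with thinning and 2 to 7 over the 6 leave-one-out fits. The number passing as lower was 1, and it was 2 under total counts alone and 1 to 2 without 1 library. With all libraries thinned to the shallowest it was 0. In that setting 2 were lower at an unadjusted p under 0.05 (edgeR), 1 immunoproteasome gene and 1 assembly chaperone. The core median of 0.22 became 0.14 under total counts alone, where the median of all rows went from -0.001 to -0.09. The sign of Psme1, which never passed, turned under total counts alone (-0.073), the replicate block (-0.002) and thinning (-0.165), and ranged from -0.036 to 0.064 without 1 library. The replicate block gave 5 higher and 1 lower, with Psmd12 lost and no other proteasome call changed. Same-numbered libraries deviated with r of -0.03, -0.09 and 0.02, so the numbers were not taken as pairs. The cause of these shifts was not tested. Psmb9 had 40 counts in vehicle 1, and it passed without that library (edgeR adjusted p = 0.0143).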
